A study of Rattus norvegicus with 8 samples.

Results

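Endothelial cells form the inner lining of every blood vessel, and 10 genes that mark these cells or build their junctions were followed in rat veins placed in the arterial circulation. The genes are Vwf, Emcn, Pecam1, Cdh5, Cldn5, Esam, Egfl7, Erg, Tie1 and Jam2. They were taken by name from a deposited table of 37209 named gene rows, and all 10 were among the 15464 genes with enough counts to be tested. The animals were Sprague Dawley rats, which gave 4 vein grafts and 4 control jugular veins, and for which the labels give no age, sex, mutant allele or drug. Both groups were taken 1 week after an operation in which the divided left common carotid artery was turned over short cuffs at its cut ends to receive a vein. The controls were jugular veins from the opposite side of the operated animals, so they came from animals that had undergone surgery and not from untouched rats. Which graft and control came from the same animal is not settled by the labels.

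Neighbouring endothelial cells are held together by adherens junctions, built on VE-cadherin (Cdh5), and by tight junctions, in which claudin-5 (Cldn5) seals the cleft. Junctional proteins of the immunoglobulin family (Pecam1, Esam, Jam2) line the same contacts and take part in the passage of leukocytes. The ETS transcription factor Erg keeps endothelial genes active, among them Cdh5 and Cldn5, while von Willebrand factor (Vwf) and endomucin (Emcn) are typical of venous endothelium, where the first is stored for release after injury and the second coats the luminal surface.

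Total counts per library ran from 5981520 to 16061189, and the 10 genes had between 66 and 47834 counts each per library. Levels are CPM, the counts divided by the library's size and scaled up to a common total, after adjustment by TMM factors, a correction for differences in RNA composition, and they are not compared between genes because the counts are not scaled to transcript length. The extraction text in the labels names a brain region, whereas contractile smooth muscle genes summed to 14986 to 24596 CPM in the controls and 12 neuronal and glial genes to 8.17 to 12.5 CPM. In the grafts the same brain list summed to 16.3 to 53.6 CPM. Of its 4 tested genes 1 was called higher, Stmn2, a tubulin-binding protein of growing neurons, with a log2 fold change of 2.85. Gad2 and Opalin had no counts in any library.

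Control 1 stood apart from the other libraries. Its 10 platelet and megakaryocyte genes summed to 340 CPM, against 23.8 to 33.5 CPM in controls 2 to 4 and 35.8 to 68.9 CPM in the grafts. Pf4, platelet factor 4, stood at 140 CPM in control 1, at 5.02 to 10.7 CPM in the other controls and at 18.1 to 22.7 CPM in the grafts. Platelets also hold Vwf, Pecam1 and Esam. The calls that changed without control 1 are given below for the 10 genes and the other genes named, and the part of the platelet transcripts in the results was not tested.

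In the grafts 5 of the 10 genes were lower: Vwf, Emcn, Jam2, Pecam1 and Esam. The falls were graded, from 4.61-fold for Vwf through 3.31-fold for Emcn, 2.56-fold for Jam2 and 1.9-fold for Pecam1 to 1.57-fold for Esam. The other 5, Cdh5, Cldn5, Erg, Tie1 and Egfl7, did not pass the test, and their log2 fold changes lay between -0.32 and 0.01. A gene was called where the Benjamini-Hochberg adjusted p of edgeR's quasi-likelihood test was under 0.05. None of the 10 was called higher, with 0 also at an unadjusted p under 0.05 and 0 by DESeq2. Among all genes tested, 42.3% were called, 21.3% lower and 21.0% higher, with a median log2 fold change of 0.01 against -0.48 for the 10 genes. The groups did not overlap for 4 of the 10, all lower in the grafts, where 19.8% of all genes were lower without overlap and 20.8% higher. In RNA of whole vessels, fewer endothelial cells, a changed share of other cells or attached tissue and less of a transcript per cell cannot be told apart. Sums of contractile genes were 14986 to 24596 CPM in the controls and 2087 to 4018 CPM in the grafts. Adipocyte sums were 849 to 4123 and 233 to 602 CPM, and leukocyte sums were 192 to 356 and 1487 to 2486 CPM. The part of these differences in the falls was not tested.

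**Figure D1:**
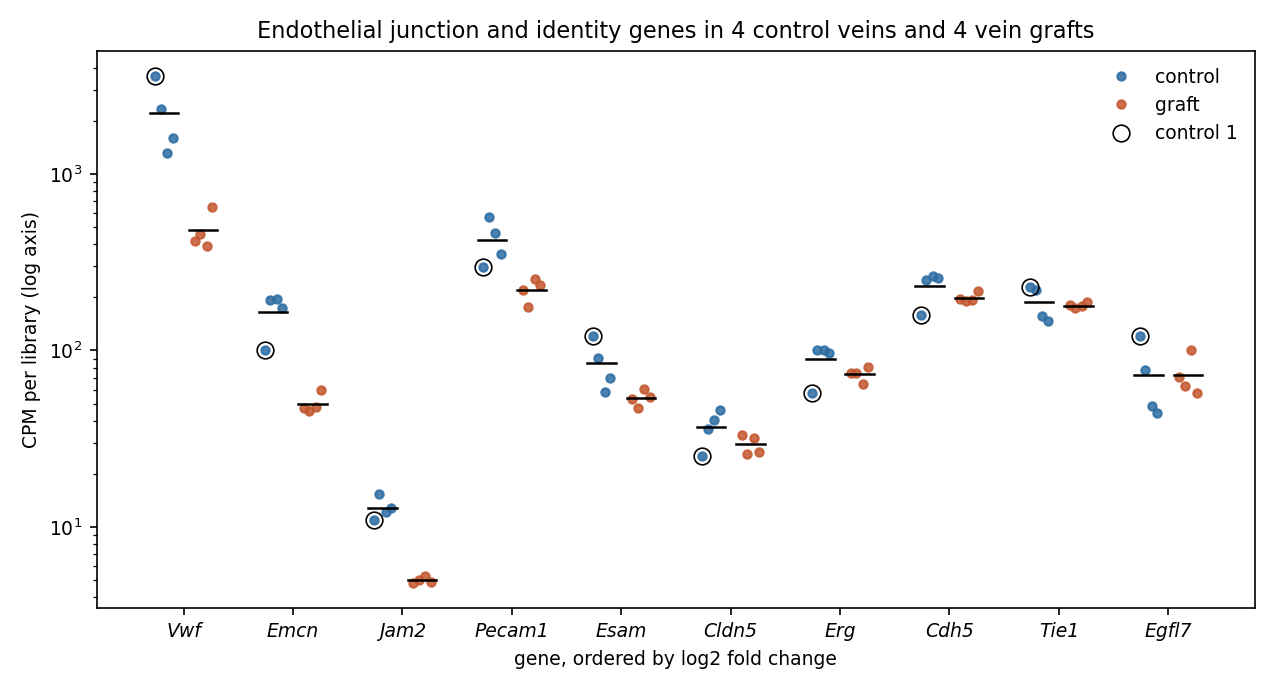
Level of each gene in every library, in CPM on a log axis, with controls in blue, grafts in orange, horizontal lines for the mean of 4 libraries and control 1 ringed. The groups are separate for Vwf, Emcn, Jam2 and Pecam1 and overlap for the other genes, and control 1 is the lowest control for Cdh5 (158 CPM) and Erg (57.5 CPM) and the highest for Vwf (3583 CPM) and Egfl7 (120 CPM).

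Among the luminal and stored proteins, Vwf had levels of 3583, 2331, 1321 and 1592 CPM (controls 1 to 4) and of 418, 455, 393 and 649 CPM (grafts 1 to 4, the order used throughout). Every graft lay below every control, although the controls spread over a wide range with control 1 at the top. The means were 2207 ± 1012 CPM (SD, n = 4) and 479 ± 116 CPM (SD, n = 4), and the log2 fold change was -2.20 ± 0.33 (SE; edgeR adjusted p = 0.000642). Without control 1 it was -1.87 ± 0.25 (edgeR adjusted p = 0.000517). Vwf encodes the adhesive multimer that captures platelets at sites of injury.

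Emcn, a sialomucin that hinders leukocyte adhesion, stood at 101, 193, 196 and 174 CPM in the controls and at 47.3, 45.2, 47.7 and 59.8 CPM in the grafts. The grafts were close together and below all controls, with control 1 the nearest to them. Its log2 fold change was -1.73 ± 0.21 (SE; edgeR adjusted p = 0.000229), and -1.91 ± 0.12 without control 1 (edgeR adjusted p = 5.16e-05).

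Of the junctional immunoglobulin proteins, Jam2 (JAM-B, which binds JAM-C on the adjacent cell) had the smallest spread within groups. It stood at 10.9, 15.4, 12.1 and 12.9 CPM in the controls and at 4.85, 5.03, 5.28 and 4.88 CPM in the grafts. The coefficient of variation was 14.8% in the controls and 3.89% in the grafts, and the groups were far apart relative to both. The log2 fold change was -1.36 ± 0.18 (SE; edgeR adjusted p = 0.000322).

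Pecam1 (CD31), which joins endothelial cells at their borders and is also carried by platelets and many leukocytes, stood at 297, 568, 462 and 353 CPM in the controls. In the grafts it stood at 220, 177, 254 and 235 CPM, below every control, and control 1 was again the lowest control. Its log2 fold change was -0.92 ± 0.21 (SE; edgeR adjusted p = 0.00659). Leukocyte genes moved the other way: all 11 tested of 12 listed were called higher and their sum went from 192 to 356 CPM in the controls to 1487 to 2486 CPM in the grafts, while the B cell gene Cd79a had no counts. The contribution of leukocytes to Pecam1 was not tested.

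Esam, an endothelial and platelet adhesion molecule of tight junctions, stood at 120, 90.5, 58 and 69.6 CPM in the controls and at 53, 47.4, 60.9 and 54.7 CPM in the grafts. The groups overlapped, since graft 3 lay above control 3. The log2 fold change was -0.65 ± 0.21 (SE; edgeR adjusted p = 0.0325). This call was lost without control 1 (-0.43, edgeR adjusted p = 0.0533), control 2 (0.0782), graft 1 (0.0771), graft 2 (0.086) or graft 4 (0.069), and with library totals in place of TMM factors (-0.42, edgeR adjusted p = 0.156).

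For Cdh5, Erg and Cldn5 the test gave a call only when control 1 was left out. Cdh5 stood at 158, 251, 265 and 257 CPM in the controls and at 195, 191, 192 and 216 CPM in the grafts. Controls 2 to 4 lay above all grafts and control 1 below all of them. With all libraries the log2 fold change was -0.23 with a 95% interval from -0.60 to 0.14 (edgeR adjusted p = 0.288), and without control 1 it was -0.38 with an interval from -0.60 to -0.16 (edgeR adjusted p = 0.0115).

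Erg showed the same arrangement, with 57.5, 101, 101 and 96.3 CPM in the controls and 74.6, 74.4, 64.4 and 80.9 CPM in the grafts. Its log2 fold change was -0.27 (95% interval -0.68 to 0.13; edgeR adjusted p = 0.253), and -0.44 without control 1 (95% interval -0.67 to -0.20; edgeR adjusted p = 0.00858). Cldn5 stood at 25.2, 35.7, 40.6 and 45.9 CPM in the controls and at 33.4, 25.8, 32.1 and 26.6 CPM in the grafts. Its log2 fold change of -0.32 (95% interval -0.74 to 0.11; edgeR adjusted p = 0.205) became -0.47 without control 1 (95% interval -0.79 to -0.14; edgeR adjusted p = 0.0266). With control 1 left out 7 of the 10 genes were thus called lower and 0 higher, Esam, Egfl7 and Tie1 being the 3 not called, where 23.9% of all genes tested were called lower.

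**Figure D2:**
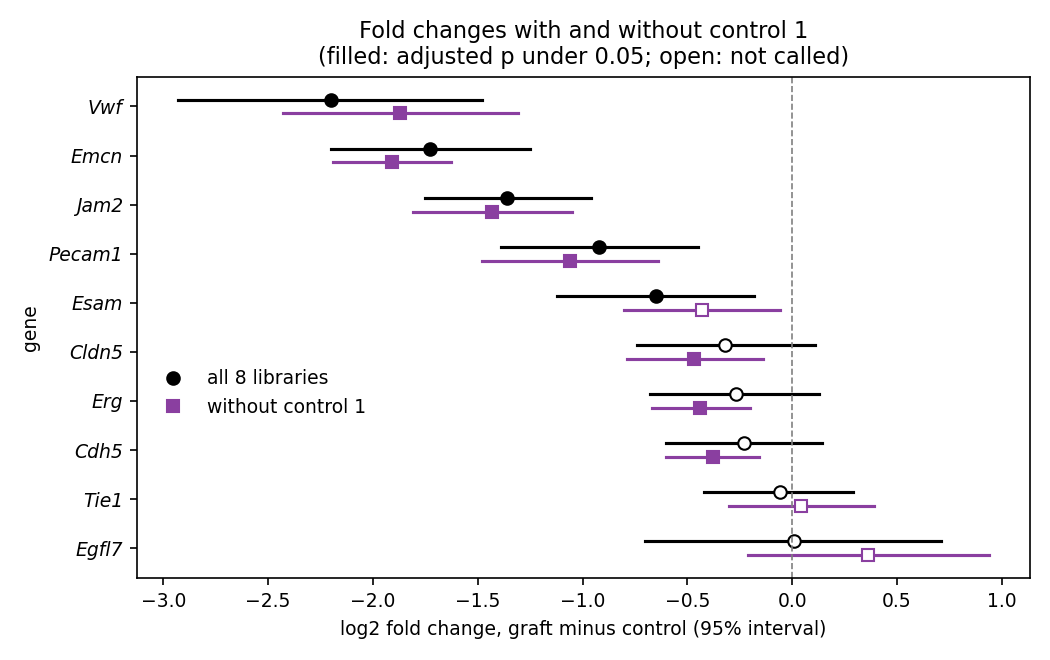
Log2 fold change of each gene, graft minus control, with its 95% interval, from all 8 libraries (black circles) and without control 1 (purple squares), filled where the adjusted p was under 0.05. Vwf, Emcn, Jam2 and Pecam1 are filled in both fits, Esam only with all libraries, and Cldn5, Erg and Cdh5 only without control 1.

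Tie1, an orphan receptor tyrosine kinase that modulates signalling of the angiopoietin receptor Tek, stood at 228, 220, 156 and 146 CPM in the controls. In the grafts it stood at 181, 173, 178 and 187 CPM, within the range of the controls. The log2 fold change was -0.06 (95% interval -0.42 to 0.29; edgeR adjusted p = 0.78). Tek, named here after its values were seen, stood at 263, 444, 432 and 418 CPM in the controls and at 196, 172, 186 and 192 CPM in the grafts. Tek fell by 1.06 ± 0.17 (log2, SE; edgeR adjusted p = 0.00103).

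Egfl7, a secreted protein that endothelial cells lay down in their matrix, stood at 120, 77.4, 48.6 and 44.1 CPM in the controls and at 71.1, 62.9, 101 and 57.3 CPM in the grafts. The groups overlapped throughout, and the log2 fold change of 0.01 had a 95% interval from -0.70 to 0.71 (edgeR adjusted p = 0.988), the widest after that of Vwf. A change of Egfl7 within that interval was not detectable with these libraries.

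The Egfl7 gene hosts microRNA-126, a regulator of endothelial growth factor signalling, and its sequences are shown because a row of the table carries its name. In the GRCr8 assembly of RefSeq the 3p arm lies at chr3:29813219-29813240 and the 5p arm at chr3:29813182-29813202, both on the plus strand and within the Egfl7 gene at chr3:29802481-29814966. The mature sequences run as follows, with the seed (bases 2 to 8) in capitals.
rno-miR-126a-3p: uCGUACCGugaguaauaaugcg
rno-miR-126a-5p: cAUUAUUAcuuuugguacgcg
The RefSeq table gives Mir126 as an older symbol of Mir126b, the gene to which it assigns these 2 sequences. The row Mir126 held 94, 28, 2 and 4 counts in controls 1 to 4 and 76, 62, 109 and 38 counts in grafts 1 to 4. As for Egfl7, controls 3 and 4 had the lowest values and control 1 and graft 3 the highest of their groups. The log2 fold change was 0.86 ± 0.80 (SE; edgeR adjusted p = 0.411). RefSeq places a further microRNA, rno-miR-126b, on the opposite strand of the same locus. Reads of these microRNAs, their precursors and the host transcript cannot be told apart in this table.

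Among the controls 7 of the 10 genes followed one of 2 patterns. Vwf, Esam, Egfl7 and Tie1 were above their control mean in controls 1 and 2 and below it in controls 3 and 4. Emcn, Cdh5 and Erg were below it in control 1 and above it in controls 2 to 4. Pecam1, Cldn5 and Jam2 followed neither pattern. As deviations from the group means over the 8 libraries, Cdh5 and Erg had a Pearson's r of 0.97, Emcn and Cdh5 of 0.97, and Esam and Egfl7 of 0.90, whereas Egfl7 and Erg had -0.83 and Vwf and Cldn5 -0.87. Over all 45 pairs of the 10 genes the median r was 0.06, with a range from -0.87 to 0.97. These coefficients describe 8 shared libraries, in which control 1 has the largest deviation for 7 of the 10 genes. Adipocyte genes also differed among the controls, with sums of 849, 1247, 2917 and 4123 CPM in controls 1 to 4 and 233 to 602 CPM in the grafts, 9 of 10 being called lower. The part of the adipose and platelet transcripts in these 2 patterns was not tested. All 10 genes had a lower coefficient of variation in the grafts than in the controls, as did 68% of all genes tested.

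**Figure D3:**
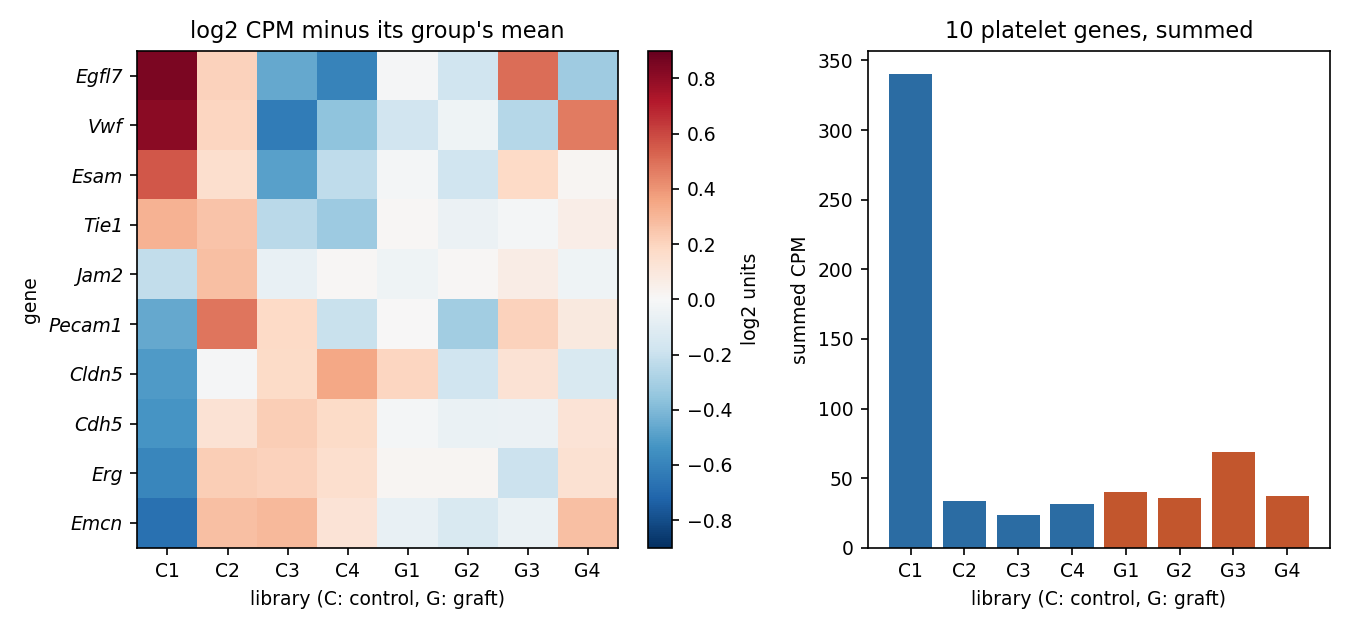
Left, log2 CPM of each gene minus the mean of its group, by library (C1 to C4 controls, G1 to G4 grafts), red above and blue below the mean. Right, summed CPM of 10 platelet and megakaryocyte genes, which is 340 CPM in control 1 and at most 68.9 CPM in the other libraries.

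To set the genes against a common endothelial reference, counts of each were divided by those of Cdh5 in the same library. The ratio was lower in every graft than in every control for 4 genes and overlapped for the other 5. These 4 were the genes whose levels already separated the groups, and Cdh5 itself had a log2 fold change of only -0.23. Vwf relative to Cdh5 had control log2 ratios of 4.50, 3.22, 2.32 and 2.63 and graft log2 ratios of 1.10, 1.25, 1.03 and 1.59, a mean 3.79-fold lower. The ratio was 2.79-fold lower for Emcn, 2.19-fold for Jam2 and 1.61-fold for Pecam1.

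Of the 9 ratios, that of Erg had the smallest difference between the group means (-0.04). Control log2 ratios of Erg ran from -1.46 to -1.31 and graft ratios from -1.57 to -1.35. Control 1, at -1.46, was near the other controls although both genes were low there. Cldn5 differed by -0.10 between the group means, with overlapping groups. For Esam, Egfl7 and Tie1 the ratio in control 1 was the highest of all libraries (-0.39, -0.40 and 0.52). With Pecam1 as the reference, the ratios of Vwf and Emcn were lower without overlap, that of Cdh5 was higher and the other 6 overlapped. These ratios were not tested, and no share over all genes is given beside their counts.

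**Figure D4:**
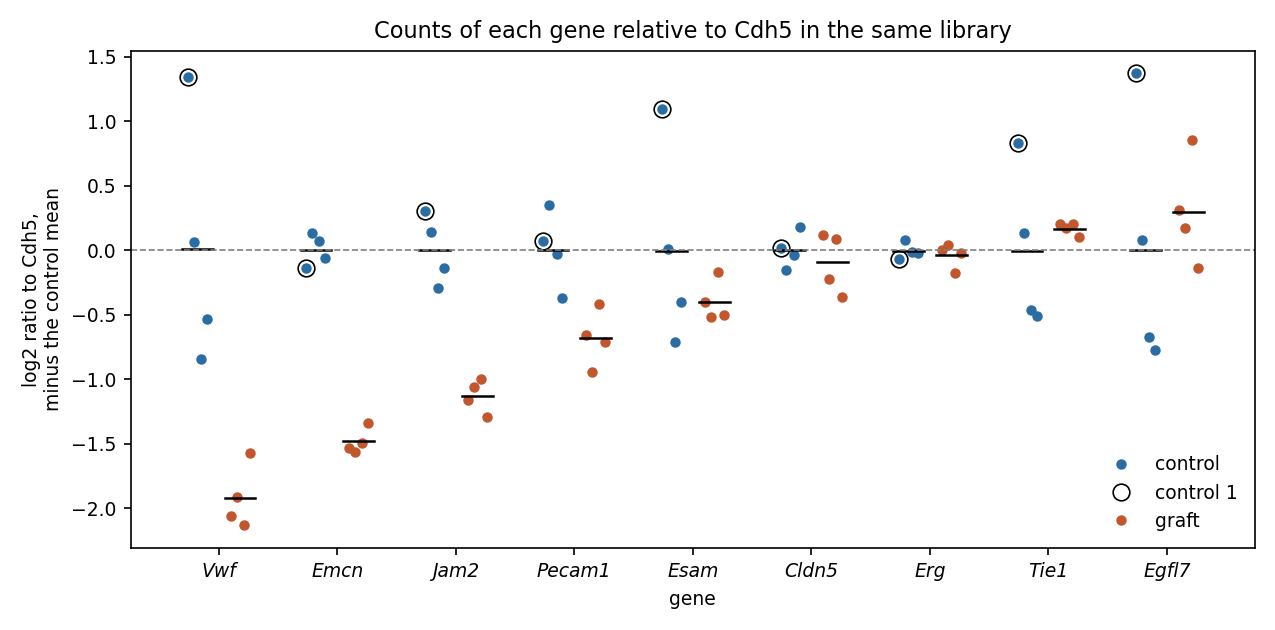
Log2 ratio of the counts of each gene to those of Cdh5 in the same library (prior count 2), shown minus the mean of the 4 controls, with controls in blue, grafts in orange and control 1 ringed. Grafts lie below all controls for Vwf, Emcn, Jam2 and Pecam1, and for Erg the means of the groups differ by -0.04.

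Promoter windows of RefSeq (GRCr8) were found for 6 of the 10 genes: Emcn, Cldn5, Egfl7, Erg, Tie1 and Jam2. The windows of Egfl7, Erg and Jam2 lay wholly within the annotated gene, so they are not sequence upstream of it. The 250 bases before the start that each window gives were searched on both strands for CAGGAA and CCGGAA. These hold the GGAA core of ETS factors such as Erg, and no 2 matches overlapped. That start can lie inside the annotated gene. Of the 250 bases, 156 lay before the annotated gene for Emcn, 184 for Tie1 and all 250 for Cldn5. Emcn had 2 matches, 242 and 137 bases before the window's own start, which lies inside the annotated gene. Erg had 1 and the first window of Egfl7 had 1. None was found in the windows of Cldn5, Tie1 and Jam2 or in the second window of Egfl7. Of all 33469 windows of this length, 34.4% held at least 1 match. Windows of 3 genes are shown up to the first base of the annotated gene, for a gene that fell (Emcn) and 2 that did not pass the test (Cldn5 and Tie1), 5′ to 3′ on the gene's strand with matches in capitals.
Emcn, chr2:228564289-228564444, plus strand: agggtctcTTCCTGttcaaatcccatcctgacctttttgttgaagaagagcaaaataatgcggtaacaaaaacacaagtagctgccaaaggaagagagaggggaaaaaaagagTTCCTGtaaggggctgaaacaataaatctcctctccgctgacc
Cldn5, chr11:95718599-95718848, minus strand: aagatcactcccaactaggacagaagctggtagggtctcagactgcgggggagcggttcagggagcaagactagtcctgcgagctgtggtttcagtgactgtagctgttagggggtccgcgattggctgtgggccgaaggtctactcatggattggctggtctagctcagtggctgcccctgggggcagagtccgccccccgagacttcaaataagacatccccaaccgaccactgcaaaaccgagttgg
Tie1, chr5:137305048-137305231, minus strand: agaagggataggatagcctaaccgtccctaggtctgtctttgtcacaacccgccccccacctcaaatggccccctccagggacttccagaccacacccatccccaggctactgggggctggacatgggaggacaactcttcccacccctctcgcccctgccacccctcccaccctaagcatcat
The base composition of the 250 bases differed, with 44.4% G and C for Emcn, 58.4% for Cldn5 and 61.6% for Tie1. A match is a run of letters and not a bound site, and a window without one says nothing of the factor.

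Other junction genes were lower too. Of 23 tested of 27 listed catenins and junction proteins, 12 were lower, 1 was higher and 10 were not called (median log2 fold change -0.63). Cgnl1 (paracingulin), which links junctions to actin, fell by 2.23 ± 0.20 (log2, SE; edgeR adjusted p = 4.41e-05). Ptprb, the phosphatase VE-PTP that binds VE-cadherin and Tek, went from 1694 ± 307 to 648 ± 96.4 CPM (edgeR adjusted p = 0.000393). The catenins Ctnnb1 and Ctnnd1, the partners of VE-cadherin on its cytoplasmic side, both had log2 fold changes of 0.06 and did not pass.

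The relatives of Jam2 also fell. F11r (JAM-A) fell by 0.81 ± 0.12 (edgeR adjusted p = 0.000759) and Jam3 (JAM-C) fell by 1.09 ± 0.13 (edgeR adjusted p = 0.000232). Ctnnb1, Ctnnd1, F11r and Jam3 were named after their values were seen. Occludin (Ocln) was the gene that rose, by 0.92 ± 0.31 (edgeR adjusted p = 0.0369), and it was not past the threshold without control 1, control 2, graft 2, graft 3 or graft 4 (edgeR adjusted p from 0.0639 to 0.0865). Without control 1 another 2 genes of the list were called higher, Cd99 and Pvrl2 (nectin-2), also named after the result, and without control 2, graft 2, graft 3 or graft 4 there were 0. Many of these genes are also made by smooth muscle or other cells, and all 10 contractile genes fell as well (median -2.66), whose part in the result was not tested.

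Among 21 tested endothelial receptors and surface proteins, 11 were lower, 3 were higher and 7 were not called (median -0.45). Adgrf5 (Gpr116 in the table), an adhesion receptor, went from 1258 ± 324 to 295 ± 40.1 CPM, and S1pr1, the sphingosine 1-phosphate receptor that strengthens junctions, fell by 1.09 ± 0.12 (SE; edgeR adjusted p = 0.000153). Eng, a co-receptor for TGF-beta family ligands, rose by 0.62 ± 0.18 (edgeR adjusted p = 0.0196). Flt4, the receptor of VEGF-C, rose by 0.41 ± 0.14 (edgeR adjusted p = 0.0438). The remaining gene called higher was the scavenger receptor Stab1, named after the result. Leukocyte genes rose in the grafts as well, and the part of leukocytes and other cells in these rises was not tested. The call of Flt4 was lost without control 1 (0.32, edgeR adjusted p = 0.0745) and without any other single library except control 2 (edgeR adjusted p from 0.0512 to 0.106). The rises numbered 2 without control 1 (Eng and Stab1) or control 2 (Eng and Flt4), 1 without control 3, graft 2, graft 3 or graft 4 (Eng) and 0 without control 4 or graft 1. With controls 3 and 4 left out none of the 3 was called, and Eltd1, named after the result, was. Some falls depended on single libraries too. Those of Cd34, Cd93 and Myct1, named after the result, were not called without control 2 or graft 3. Without control 4, graft 1 or graft 2 some of these calls were also lost. With controls 3 and 4 left out Cd34, Myct1 and Flt1, also named after the result, were not called lower. Of 16 endothelial transcription factors, 6 fell and 4 rose (median -0.01), Bcl6b and Etv6 among the latter, named after the result. Without control 2, graft 2 or graft 4, only Gata2, Nr2f2, Prox1 and Tal1 were called lower, Gata2 and Tal1 being named after the result. The same held with library totals or the title number as a block. In these fits the 4 rises kept their calls. The part of other cells in these changes was not tested. Prox1 and Nr2f2, which set lymphatic and venous identity, both decreased: Prox1 fell by 1.98 ± 0.14 (edgeR adjusted p = 2.44e-05) and Nr2f2 fell by 1.57 ± 0.15 (edgeR adjusted p = 6.79e-05). Sox18 rose by 1.49 ± 0.29 (edgeR adjusted p = 0.00264) and Heyl, a Notch target, by 1.15 ± 0.17 (edgeR adjusted p = 0.000732). The ETS factor Elk3 stood at 210 ± 38.4 and 212 ± 13.4 CPM.

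**Figure D5:**
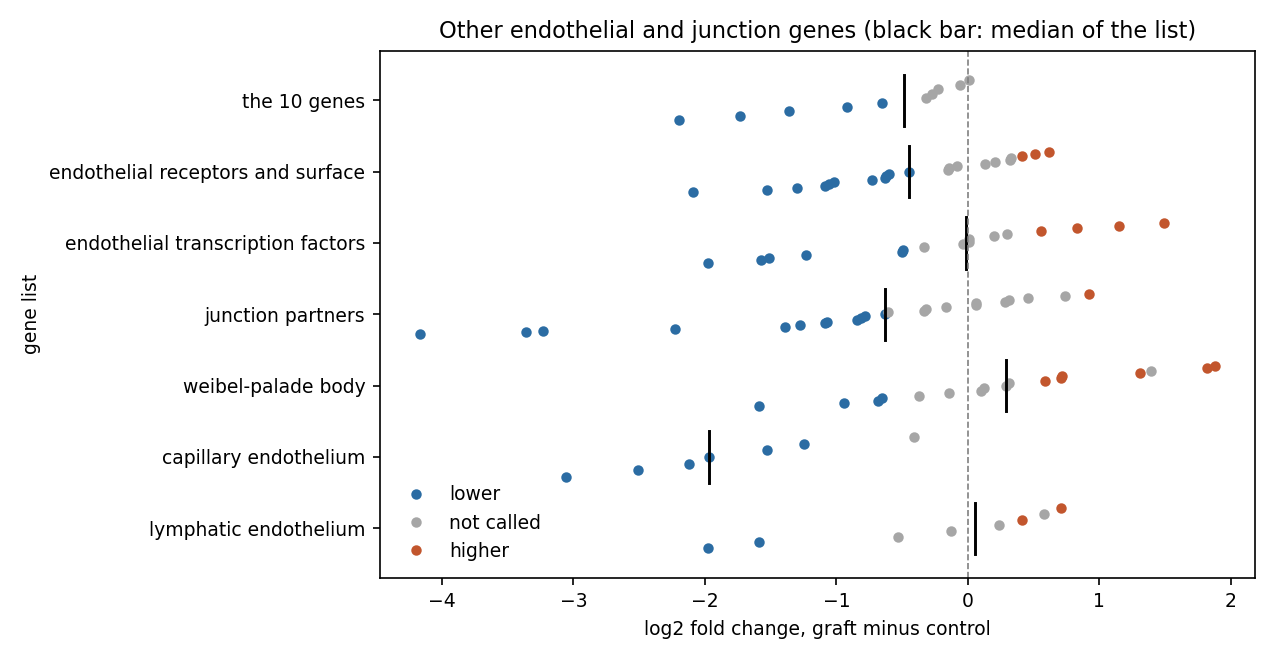
Log2 fold change of each tested gene, graft minus control, by gene list, blue for genes called lower, orange for genes called higher and grey for the rest, with a black bar at the median. Medians are -0.48 for the 10 genes, -1.97 for capillary endothelium and 0.29 for the Weibel-Palade body list.

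Vwf is stored in Weibel-Palade bodies, and other genes of these granules moved in both directions. Of 17 tested, 6 were higher, 4 were lower and 7 were not called (median 0.29). Selp, P-selectin of the granule membrane, stood at 15.8, 13.2, 11.5 and 17.5 CPM in the controls and at 52.7, 42.7, 78.8 and 30.6 CPM in the grafts, above every control, and rose by 1.82 ± 0.28 (SE; edgeR adjusted p = 0.000815). Plat, the tissue plasminogen activator, rose by 1.31 ± 0.15 (edgeR adjusted p = 0.000184). Rab27a, a GTPase of granule release, fell by 0.94 ± 0.13 (edgeR adjusted p = 0.000363), and Ece1, which processes endothelin, fell by 0.68 ± 0.12 (edgeR adjusted p = 0.00194). The fit without controls 3 and 4 called 3 higher (Plat, Selp and Vps33b) and 3 lower (Ece1, Rab27a and Vamp3), with Vps33b and Vamp3 named after the result. Many of these genes are also made by platelets and leukocytes, whose part was not tested.

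Genes listed for small-vessel endothelium were lower: 6 of 7 tested fell, with a median of -1.97. Not all of them are confined to that endothelium, and the part of smooth muscle and other cells in these falls was not tested. Meox2, a homeobox factor, fell by 2.12 ± 0.17 (SE; edgeR adjusted p = 3.68e-05), and Car4, a carbonic anhydrase of the capillary surface, fell by 3.06 ± 0.43 (edgeR adjusted p = 0.000489). Car4 levels were low, at 1.79 to 4.48 CPM in the controls and 0.24 to 0.425 CPM in the grafts. In the grafts 3 counts equal 0.182 to 0.24 CPM, so this fall rests on few counts. Cd36, a fatty acid transporter that adipocytes and macrophages also carry, went from 199 ± 99.7 to 68.8 ± 24.5 CPM. With controls 3 and 4 left out, the libraries richest in adipocyte genes, 3 of the 7 fell. Cd300lg and Gpihbp1, named after the result, lost their calls without control 3, control 4, graft 1 or graft 4. Cd300lg also lost its call without control 2 or graft 2. Of 8 lymphatic genes 2 fell (Prox1 and Mmrn1) and 2 rose (Flt4 and Pdpn). The lymphatic rises numbered 0 without control 1, control 4, graft 1, graft 2 or graft 4 and 1 without control 3, and the falls numbered 3 without graft 4 (with Lyve1, named after the result) and 1 (Prox1) with controls 3 and 4 left out. Mmrn1, a protein of platelets and lymphatic vessels, fell by 1.59 ± 0.41 (edgeR adjusted p = 0.0124).

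Of the other cell types, 0 of 7 tested platelet genes were called by edgeR in either direction, with 3 lower and 0 higher at an unadjusted p under 0.05 and 1 lower by DESeq2 (Gp1ba). Without control 1, Gp1bb and Pf4 were called higher. Without graft 3, Clec1b, Gp1ba and Tubb1 were called lower, and without control 3, Gp1ba was. These names, apart from Pf4, were chosen after the result. Of 7 pericyte genes 2 rose and 1 fell, or 2 fell without control 1 (Abcc9 and Kcnj8, the latter named after the result). Rgs5 and Pdgfrb rose by 0.90 and 1.86 on the log2 scale, and Abcc9 fell by 1.84.

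For each gene the 3 other genes of at least 10 CPM with the most similar log2 CPM over the 8 libraries were listed. Jam2 was most like Meox2 (Pearson's r = 0.999), Vwf most like the laminin chain Lamb2 (0.991), Erg most like the replication factor Rfc1 (0.994) and Esam was like the water channel Aqp1 (0.980). Of the 30 listed genes, only Meox2 stood in one of the endothelial lists. The difference between grafts and controls is part of these coefficients. With 8 libraries and many candidate genes, high coefficients are common, and they describe these libraries alone.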

How the data were processed

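RNA of 4 vein grafts and 4 control jugular veins was sequenced as total RNA. The submitters' processing notes name HISAT2 2.0.4 and the assembly Rnor_6.0, and the sources used here give no read counter, annotation release or strand setting. The authors deposited whole-number counts per gene, 1 column per sample, with no normalization found in the values. Strand use being unknown, overlapping and antisense genes cannot be told apart.

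Counts were analysed with edgeR 4.0.16 in R 4.3.3. filterByExpr with a minimum count of 10 kept 15464 genes, which held 99.08% to 99.86% of each library's counts. TMM factors ran from 0.90 to 1.19. Grafts and controls were compared by glmQLFit and glmQLFTest, unpaired, with Benjamini-Hochberg adjustment over all genes tested, and called under 0.05. Fold changes are graft minus control, with the standard error taken as the fold change over the square root of F and 95% intervals from it. The procedure was tested on simulated data. Older symbols were matched through the RefSeq table. Of the listed genes, Adamts13 and Btnl9 were not matched and are not analysed here. The genes named are the 10, the 2 strongest in each direction and the one with the highest mean CPM over all libraries in each list, and the 3 most alike; others are said to be chosen later. A gene that this rule names is not reported here. Members, lists and tests were chosen with earlier results of these data known. The labels do not say whether libraries of a group came from separate animals, so p-values measure the spread between these samples. No pair of libraries was alike within sampling noise (chi-square per degree of freedom of 24.5 or more). Alternatives were DESeq2 1.42.0, library totals, upper-quartile factors, no low-count filter, a replicate block and fits without single libraries or controls 3 and 4.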

Additional observations from a re-analysis of the deposited data

Results flagged for a closer look

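Cdh5 stood at 158 CPM in control 1, far from the nearest control at 251 CPM, a gap of 0.863 of the range of the 4 controls. Erg stood at 57.5 CPM in control 1 against 96.3 CPM in the nearest control, a gap of 0.887 of the range. A gap above 0.829 marks a library as far from the other 3, and chance gives about 1 such mark in 20 groups, which is the number of groups examined here (10 genes in 2 groups). Both marks fall on control 1, which also had the highest platelet sum. The 10 genes share the same libraries, so the 20 groups are not independent. Deviations of Cdh5 and Erg from their group means had a Pearson's r of 0.97, so their marks are not 2 separate observations.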

How the results depend on the processing

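Of 14 alternative fits, Vwf, Emcn, Jam2 and Pecam1 were called lower in all, with the weakest edgeR or DESeq2 adjusted p at 0.0302 (Pecam1). The count of the 10 genes called lower was 5 in the fit with all libraries and ran from 4 to 7 over the alternatives, and the count called higher was 0 in all. With the title number as a replicate block, 4 were lower and Esam was not called (edgeR adjusted p = 0.0701). Same-numbered grafts and controls had deviations that correlated at -0.07, 0.18, 0.07 and 0.05, and the source names number the grafts differently from the titles, so a pairing by title number was not established. The sign of the uncalled Egfl7 estimate (0.01) turned in 3 of the 8 fits without single libraries (control 3, control 4 or graft 3), which ranged from -0.17 to 0.36, and with controls 3 and 4 left out (-0.43). That of Tie1 turned to 0.17 with library totals, and its fits without single libraries ranged from -0.16 to 0.04. That of Elk3 ranged from -0.09 to 0.13 without single libraries, and that of Pf4 from -1.45 to 1.29, with 0.43 under the replicate block. The cause of these turns was not tested. With library totals the median over all genes tested went from 0.01 to 0.23 (log2) and the share of calls that were higher from 49.7% to 67.8%. In that fit 7 endothelial receptors fell and 6 rose, and 2 junction partners rose. Under the block 1 receptor and 0 lymphatic genes rose, and with no low-count filter 1 and 1. Of 630 values of 45 named genes, 579 kept direction and side of the threshold, 34 lost the call, 5 gained it and 11 turned sign, while DESeq2 gave no adjusted p for Pf4 (-1.05). With Pecam1 in place of Cdh5 as the reference, 2 of 9 ratios were lower without overlap and 1, that of Cdh5, was higher. The count of ratios to Cdh5 that separated the groups was 5 with controls 3 and 4 left out, an alternative chosen after the data were seen. The alternatives without single libraries, also chosen after the data were seen, gave 4 in each. No share over all genes is given for these counts of ratios. At the lowest depth, 3 counts equal 0.56 CPM in control 4.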
